A study of Homo sapiens with 16 samples.

Results

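Of the 40663 gene rows measured in Ccd18-Co cells, 8 were followed here across 4 treatments. CPXM2, NRCAM, STEAP2, GCGR and GABRA2 were far higher, and TMEM255A, CNTNAP3C and FGL2 lower, weeks after a course of inflammatory cytokines had ended. The members were chosen by that gap, measured in estimated counts between cytokine-pulsed cells given vehicle and unstimulated cells, so the gap itself is described and not tested. The open question was whether either of 2 compounds that act on chromatin enzymes erased it.

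Ccd18-Co is a fibroblast line from human colon, and all 16 bulk RNA-seq libraries came from it, 4 in each of 4 groups. Cells of 3 groups went through 3 pulses with IL-1B (0.1 ng/ml), IL-17A, OSM and TNF (10 ng/ml each), where a pulse lasted 72 h and the recovery after it 96 h. They then rested for 1 week and were given DMSO (called vehicle here), belinostat at 250 nM or GSK-J4 at 10 µM for 5 days, and RNA was taken 2 weeks later. The fourth group, called unstimulated, received no cytokine. Its sample titles give DMSO, whereas its column names carry the word none. If it had no DMSO, an effect of DMSO could not be told apart from the cytokine gap. These concentrations and the group sizes are those of the labels. The study's text differs from them in places. Its methods name a lower IL-1B concentration, while the legend of the compound experiment names the labelled one. The legend of an ELISA of that experiment names a higher belinostat and a lower GSK-J4 concentration. The supplement gives that higher belinostat concentration as the study's default. Fewer RNA-seq replicates are stated for the cytokine model and for the compound groups. Which concentrations applied to these libraries was not settled. No group received a compound without cytokines, so an effect of a compound on cells that had never seen the mix cannot be told apart from an effect on the changes the mix left. Replicate numbers run in blocks by group (1 to 4, 13 to 16, 17 to 20 and 21 to 24), and the labels do not say what the numbers stand for. Any effect that follows the numbering cannot be told apart from treatment. Nothing in the labels says whether the replicates were handled as separate cultures throughout, so the p-values measure the spread between these samples.

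Belinostat inhibits histone deacetylases, enzymes that remove acetyl groups from histones and other proteins. GSK-J4 is a cell-permeable inhibitor of KDM6A and KDM6B, which remove a repressive methyl mark from histone H3. Fibroblasts exposed to inflammatory cytokines can keep part of the response after the stimulus is gone, and marks on chromatin are a widely discussed carrier of such memory. The 8 genes belong to no common pathway. CPXM2 encodes a secreted member of the metallocarboxypeptidase family that is thought to lack enzyme activity. NRCAM is a cell adhesion molecule of the L1 family that is best known on neurons. STEAP2 is a membrane metalloreductase that reduces iron and copper, GCGR is the receptor for glucagon, and GABRA2 is a subunit of the GABA-A receptor, a chloride channel. TMEM255A is a membrane protein of poorly known function. CNTNAP3C belongs to the contactin-associated, neurexin-like proteins. FGL2 is a fibrinogen-like protein that occurs as a membrane-bound prothrombinase and as a secreted immune regulator.

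In the GENCODE annotation of GRCh38, all 8 are annotated as protein-coding. CPXM2 lies at chr10:123706207-123940267 (minus strand), NRCAM at chr7:108147623-108456717 (minus), STEAP2 at chr7:90167590-90238137 (plus) and GCGR at chr17:81804132-81814008 (plus). GABRA2 spans chr4:46243548-46475230 (minus), TMEM255A chrX:120258650-120311556 (minus), CNTNAP3C chr9:61330717-61453030 (plus) and FGL2 chr7:77193369-77199848 (minus). The 3 members on chromosome 7 lie apart from one another. RefSeq gave 14 promoter windows for the 8 genes. The 250 bases before the start are printed 5′ to 3′ on the gene's strand for the gene with the highest vehicle level relative to unstimulated cells (CPXM2), for the NRCAM start whose window held motif matches, and for the genes that differed from vehicle after GSK-J4 (STEAP2 and FGL2). They are in GRCh38.p14 coordinates, and capitals mark matches to the motifs searched.

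CPXM2, chr10:123891808-123892057, minus strand: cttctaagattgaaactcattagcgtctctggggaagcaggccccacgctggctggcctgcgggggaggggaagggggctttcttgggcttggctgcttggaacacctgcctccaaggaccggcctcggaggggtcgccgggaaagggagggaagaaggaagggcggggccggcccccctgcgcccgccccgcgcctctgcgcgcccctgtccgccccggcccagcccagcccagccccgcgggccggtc
NRCAM, chr7:108243386-108243635, minus strand: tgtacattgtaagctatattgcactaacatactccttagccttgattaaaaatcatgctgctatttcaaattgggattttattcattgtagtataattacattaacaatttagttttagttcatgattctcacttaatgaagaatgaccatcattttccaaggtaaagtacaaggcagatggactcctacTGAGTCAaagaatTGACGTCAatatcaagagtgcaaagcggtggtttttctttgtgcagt
STEAP2, chr7:90211490-90211739, plus strand: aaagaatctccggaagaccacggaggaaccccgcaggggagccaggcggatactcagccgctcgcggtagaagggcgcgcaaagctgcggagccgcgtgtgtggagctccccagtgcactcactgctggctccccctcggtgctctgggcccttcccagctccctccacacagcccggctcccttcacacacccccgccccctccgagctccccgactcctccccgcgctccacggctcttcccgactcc
FGL2, chr7:77199820-77200069, minus strand: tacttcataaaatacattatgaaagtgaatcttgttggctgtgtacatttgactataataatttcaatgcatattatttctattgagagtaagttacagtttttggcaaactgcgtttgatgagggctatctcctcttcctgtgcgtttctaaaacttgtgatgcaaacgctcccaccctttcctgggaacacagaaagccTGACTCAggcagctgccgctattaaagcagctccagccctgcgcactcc

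The motifs were those of AP-1 (TGANTCA), STAT factors (TTCNNNGAA), the cyclic AMP response element or CRE (TGACGTCA), NF-kappaB (by its usual consensus) and the TATA box (TATAAA), searched on both strands. AP-1 matches stood in 2 of the 14 windows: TGACTCA 49 bases before the FGL2 start and TGAGTCA 60 bases before the NRCAM start shown. The same NRCAM window held a CRE match 47 bases before the start. That window lies inside the gene as GENCODE places it. The NRCAM window nearest the GENCODE start (chr7:108456437-108456686, 78.4% G and C, 29 CpG pairs) held no match. Neither did the remaining NRCAM window. Over all 35116 RefSeq windows of 250 bases, 6.57% held an AP-1 match, 6.57% a STAT match, 1.65% a CRE match, 5.21% an NF-kappaB match and 10.7% a TATA box match. A TATA box match stood in 2 windows not shown, of GABRA2 and STEAP2. STAT and NF-kappaB letters were not found in these 14 windows. The windows differ in makeup: that of CPXM2 had 72.4% G and C with 20 CpG pairs, that of FGL2 42% with 5, against medians of 58% and 11 over all windows. Which start the cells used was not measured.

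Each library held 14.4 to 19.5 M estimated counts. Values below are normalized counts, that is estimated counts divided by a library size factor, and they compare libraries within a gene, not genes with each other. All 8 fibroblast markers checked (collagens, PDGFRA, PDGFRB, LUM, DCN and VIM) were abundant, with a summed level of 423859 to 559944. Several members are best known from neurons, liver or islets, so defining markers of other cell types were read in each library. SOX10 (glia), KRT20 (gut epithelium), CD3E (T cells), and INS and TTR (islet and liver) were at 0 in all 16 libraries. Some other markers on the lists were present. The leukocyte markers CD68 and CD14 had means of 291 and 71.8 in unstimulated cells and 264 and 141 in vehicle. They had means of 257 and 196 after belinostat and 301 and 106 after GSK-J4. VWF (endothelium) had means of 31.8, 19.7, 22.3 and 25.6 in that order of groups. Under 10 in every library were 4 of 6 leukocyte, 3 of 5 endothelial and 4 of 5 epithelial markers. The 8 neuron markers summed to 1292 to 1501 in unstimulated cells, 1266 to 1728 in vehicle, 1164 to 1367 after belinostat and 1222 to 1507 after GSK-J4. UCHL1 and SNAP25 made up most of that sum, so it says little about the rarer markers. STMN2 had means of 9.43, 12.9, 61 and 20.03 in the same order of groups. UCHL1 had means of 1232, 1313, 1061 and 1220. Loss or gain of cells that express a gene and a change of its level per cell cannot be told apart in bulk RNA.

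The adhesion and protease-family genes made the widest gaps. CPXM2 stood at 11.6, 10.01, 9.77 and 15.6 normalized counts in the 4 unstimulated libraries and at 359, 373, 284 and 326 in the vehicle libraries. With belinostat it read 389, 418, 358 and 364, and with GSK-J4 404, 343, 474 and 409. All 12 pulsed libraries lay far above all 4 unstimulated ones, and the 3 pulsed groups overlapped one another. The group means were 11.7 ± 2.71 in unstimulated cells, 336 ± 39.4 in vehicle, 382 ± 27 after belinostat and 408 ± 53.7 after GSK-J4 (SD, n = 4 in each). The vehicle gap was 4.84 ± 0.23 on the log2 scale (SE from the fit), or 28.6-fold.

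NRCAM was barely detected without cytokines, at 2.9, 6.01, 6.21 and 6.83. Vehicle libraries held 158, 126, 128 and 188. After belinostat the values were 137, 133, 122 and 118, and after GSK-J4 149.5, 178, 151 and 189. The lowest pulsed library was thus more than an order of magnitude above the highest unstimulated one. Means were 5.49 ± 1.76, 149.8 ± 29.5, 127 ± 8.71 and 167 ± 19.5 in the same order of groups, and the vehicle gap was 4.77 ± 0.33 (log2). The belinostat libraries, the tightest group, lay wholly below the GSK-J4 libraries and overlapped the vehicle libraries.

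STEAP2 was highest after GSK-J4. Unstimulated libraries held 6.76, 8.01, 10.7 and 11.7 normalized counts, and vehicle libraries 179.9, 148, 137 and 139. Belinostat libraries held 172, 171, 182 and 169, and GSK-J4 libraries 184, 195, 213 and 216. Every GSK-J4 library was above every belinostat and every vehicle library. Means were 9.28 ± 2.3, 151 ± 19.9, 174 ± 5.92 and 202 ± 15.3. The gap of vehicle over unstimulated cells was 4.02 ± 0.26 (log2).

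Both receptor genes were also low but present before cytokines. GCGR read 8.69, 8.01, 13.3 and 6.83 in unstimulated cells and 133, 149, 109 and 134 in vehicle. It read 83.1, 127, 141 and 157 after belinostat and 99.7, 79.9, 119 and 104 after GSK-J4. The 3 pulsed groups overlapped, with means of 131 ± 16.7, 127 ± 31.7 and 101 ± 16.1, and all stood far above the unstimulated mean of 9.21 ± 2.84. Its vehicle gap was 3.82 ± 0.3 (log2).

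GABRA2 counts were 38.6, 20.02, 22.2 and 29.3 in unstimulated cells and 170.4, 205, 202 and 264 in vehicle. Belinostat libraries gave 335, 149, 135 and 178, and GSK-J4 libraries 186, 140.3, 197 and 136. The first belinostat library (replicate 17) was the highest of all 16, while the other belinostat libraries lay within or below the vehicle range. Means were 27.5 ± 8.38, 210.3 ± 38.9, 199 ± 92.4 and 165 ± 31.2, and the vehicle gap was 2.93 ± 0.28 (log2).

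The members that were lower in vehicle had smaller gaps. TMEM255A stood at 168, 278, 339 and 230.4 in unstimulated libraries against 90.4, 111, 123 and 80.2 in vehicle. Belinostat libraries held 39.1, 111, 127 and 148, and GSK-J4 libraries 86.5, 95.2, 101 and 78.6. No pulsed library reached the lowest unstimulated one, and belinostat replicate 20 came nearest to it. Means were 254 ± 72.6, 101 ± 19.4, 107 ± 47.4 and 90.2 ± 9.68, a vehicle gap of -1.33 ± 0.29 (log2).

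CNTNAP3C read 95.5, 148, 122 and 147 in unstimulated cells and 73.3, 66.1, 51.2 and 61.8 in vehicle. After belinostat it read 43, 86.7, 68 and 78.9. After GSK-J4 it read 96.6, 88.1, 57.9 and 76.5, so that 1 GSK-J4 library entered the unstimulated range. Means were 128 ± 25, 63.1 ± 9.23, 69.1 ± 19.1 and 79.8 ± 16.7, and the vehicle gap was -1.02 ± 0.22 (log2). These counts are uncertain, since 96.1% of the 31-base words of its annotated transcript also occur in other genes, 96% in CNTNAP3 and 64.5% in CNTNAP3B.

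FGL2 was the member whose groups separated most clearly by compound. Unstimulated libraries held 1749, 1577, 1495 and 1584 normalized counts, and vehicle libraries 1136, 757, 757 and 621. Belinostat libraries lay at 513, 685, 772 and 601, within or below the vehicle range. GSK-J4 libraries lay at 1242, 1393, 1470.1 and 1214, all above the vehicle libraries and all below the unstimulated ones. Means were 1601 ± 106, 818 ± 222, 643 ± 111 and 1330 ± 122, and the vehicle gap was -0.97 ± 0.15 (log2). FGL2 lies inside CCDC146 on the opposite strand, and CCDC146 itself moved little, with means of 88.2, 82.9, 90.5 and 99.4. Whether the counting used strand is not given in the sources used here, and 7.32% of the 31-base words of FGL2 transcripts occur in other genes.

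**Figure D1:**
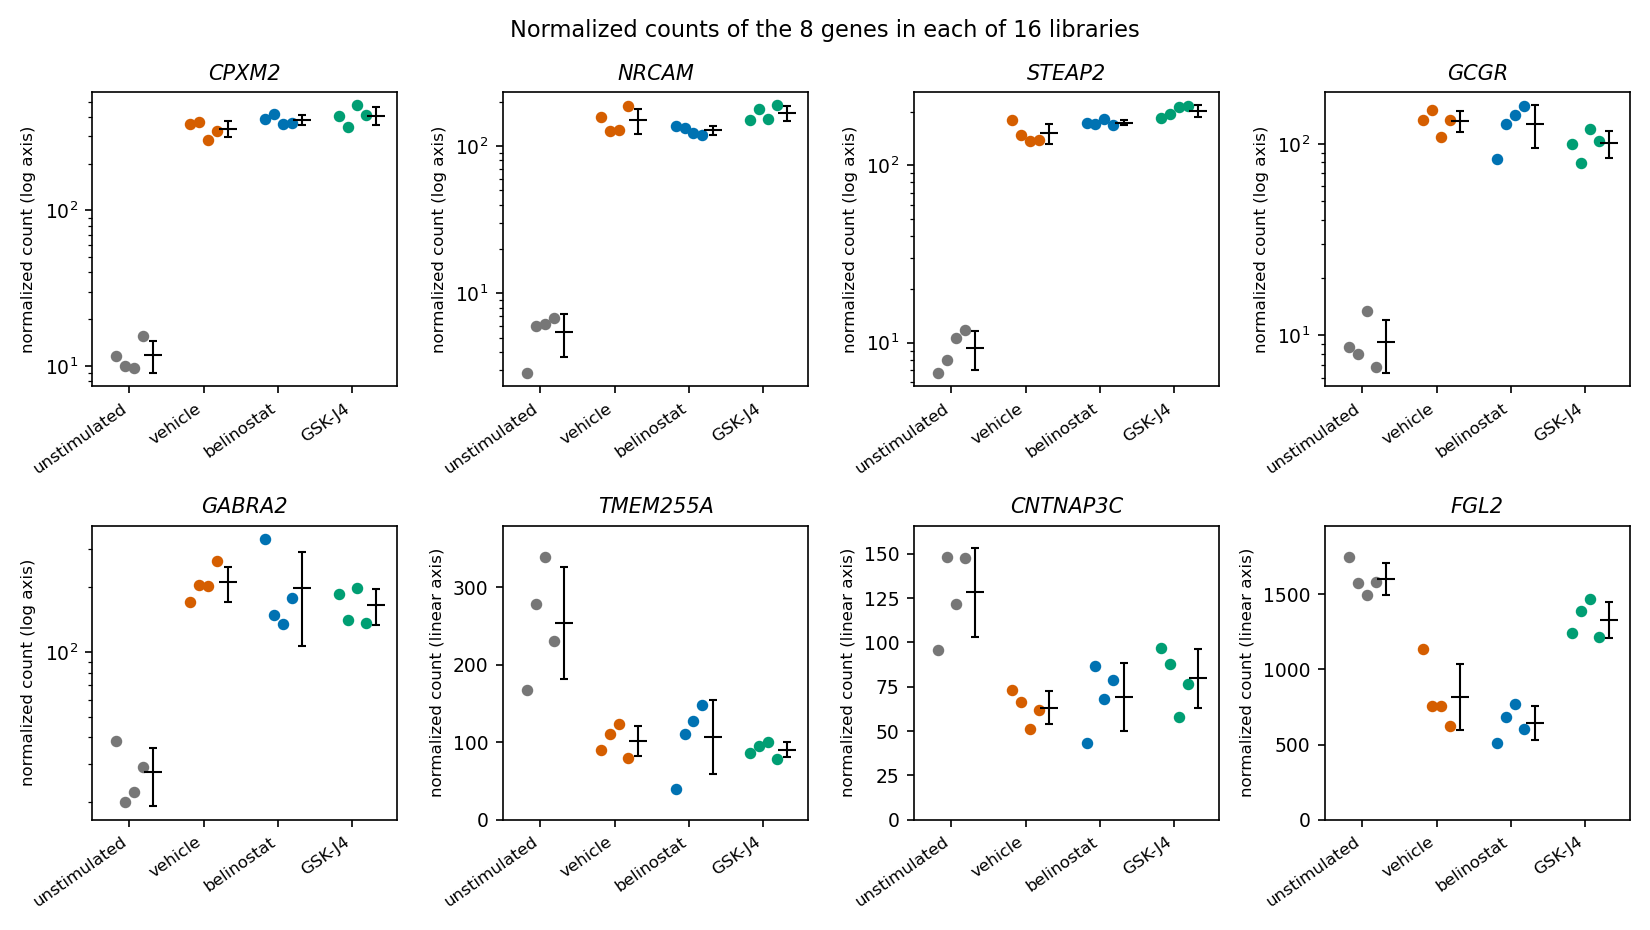
Normalized counts of the 8 genes (vertical axes, log scale for the 5 that were higher in vehicle and linear from 0 for the 3 that were lower) in unstimulated, vehicle, belinostat and GSK-J4 libraries. Each dot is 1 library, and the black bar beside each group is its mean ± SD (n = 4). The higher genes stayed high in every pulsed library, whereas FGL2 after GSK-J4 lay between 1214 and 1470.1, above all vehicle libraries.

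By the test used, no member differed between belinostat and vehicle. Against vehicle, 0 of 8 members were called at an adjusted p under 0.05 (DESeq2's Wald test, adjusted over all 14209 genes tested), where 6.26% of all genes were called. At an unadjusted p under 0.05 the count was 1 (FGL2), and edgeR called 0. No member had vehicle and belinostat libraries that did not overlap, against 11.4% of all genes. At such shares few or none of 8 genes would pass, so these counts alone do not set the members apart. The log2 differences ran from -0.35 ± 0.15 for FGL2 (adjusted p = 0.188, DESeq2) to 0.2 ± 0.12 for STEAP2 (adjusted p = 0.453, DESeq2). That of FGL2 pointed away from the unstimulated level. The vehicle libraries had also entered the choice of members, so these comparisons share them with that choice.

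The intervals show how much of a return each comparison could have held. A full return of CPXM2 would undo a log2 gap of 4.84, and its 95% interval with belinostat ran from -0.04 to 0.41. For NRCAM the interval was -0.54 to 0.07, for STEAP2 -0.04 to 0.44, for GCGR -0.43 to 0.33 and for GABRA2 -0.57 to 0.42. All 5 stopped far short of the return. For the lower members the gaps to undo were -1.33 for TMEM255A and -1.02 for CNTNAP3C. Their intervals were -0.5 to 0.64 and -0.32 to 0.57, which left room for part of a return but not a full one. The interval of FGL2 was -0.64 to -0.05. Without vehicle replicate 16, FGL2 was called lower after belinostat, at -0.46 (adjusted p = 0.0383, DESeq2).

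Belinostat replicate 17 held the highest or lowest value of its group for 6 of the 8 members: it was highest for NRCAM and GABRA2 and lowest for GCGR, TMEM255A, CNTNAP3C and FGL2. Its depth of 18.3 M was the highest of its group. Without it the belinostat difference from vehicle was 0.11 for GCGR, -0.45 for GABRA2, 0.35 for TMEM255A, 0.3 for CNTNAP3C and -0.25 for FGL2 (log2), and none of these passed the threshold (DESeq2 adjusted p between 0.153 and 0.818). In unstimulated cells replicate 1 and in GSK-J4 cells replicate 23 were likewise at an end of their group for 6 members.

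GSK-J4 moved 2 members relative to vehicle, in opposite relation to the cytokine gap. FGL2 rose by 0.7 ± 0.15 on the log2 scale, or 1.63-fold (95% interval 0.41 to 0.99, adjusted p = 0.000552, DESeq2), which is towards the unstimulated level. STEAP2 rose by 0.42 ± 0.12, or 1.34-fold (interval 0.19 to 0.66, adjusted p = 0.0294, DESeq2), which is further away from it. These were 2 of 8 called where 1.92% of 13197 genes were, and 2 of 8 with libraries that did not overlap where 10.0% of all genes had none in common. The FGL2 call held in every alternative run, with adjusted p from 1.71e-10 to 0.0339 (DESeq2 and edgeR). The STEAP2 call did not: it was lost with edgeR (adjusted p = 0.0746) and without any of vehicle replicates 14, 15 and 16 or GSK-J4 replicates 22, 23 and 24, where adjusted p lay between 0.0905 and 0.189 (DESeq2).

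The other 6 members did not pass the threshold after GSK-J4. CPXM2 differed from vehicle by 0.28 ± 0.12 (log2, adjusted p = 0.282, DESeq2), and NRCAM by 0.16 ± 0.15. GCGR differed by -0.39 ± 0.2, with an interval of -0.77 to 0.0019, and GABRA2 by -0.35 ± 0.26, with an interval of -0.85 to 0.15. These estimates pointed towards the unstimulated level but covered a small part of gaps of 3.82 and 2.93. TMEM255A differed by -0.17 ± 0.29 and CNTNAP3C by 0.34 ± 0.22, whose interval of -0.1 to 0.78 stopped short of undoing the gap of -1.02.

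**Figure D2:**
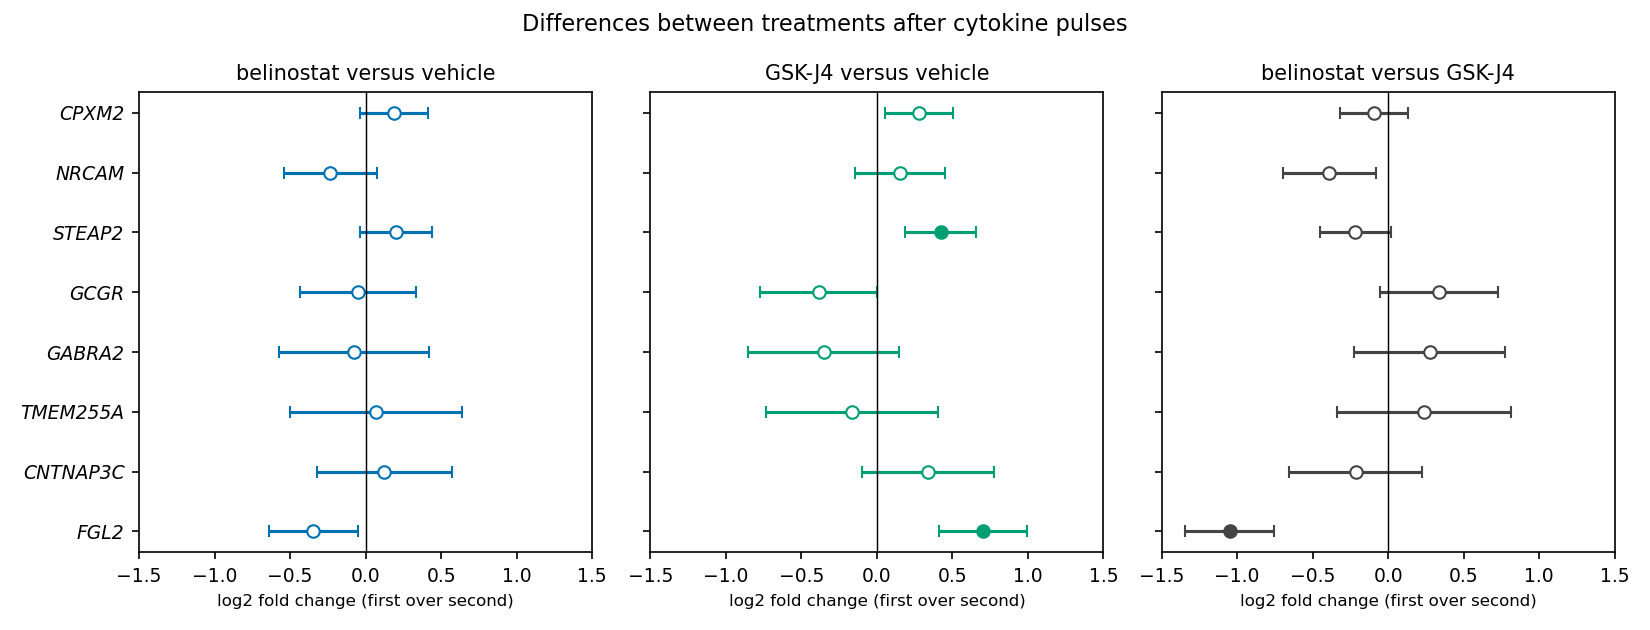
Log2 fold changes of the 8 genes between treatments of pulsed cells (horizontal axis, first group over second), with 95% intervals from the fit across 16 libraries. Filled circles passed an adjusted p of 0.05 and open circles did not. FGL2 stands at 0.7 with GSK-J4 over vehicle and at -1.05 with belinostat over GSK-J4, and most other intervals cover 0.

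The libraries of the compounds had not entered the choice of members, although the fit estimates its spread over all 16 libraries. FGL2 was lower with belinostat than with GSK-J4 (log2 difference -1.05 ± 0.15, interval -1.34 to -0.76, adjusted p = 2.06e-10, DESeq2), a 2.07-fold difference, and the libraries of the groups did not overlap. Fitted on the 8 libraries of the compounds alone, it was -1.05 (adjusted p = 1.3e-15, DESeq2). It was the 1 member called of 8, where 12.2% of 14717 genes were called, so that count is near the share over all genes. Across the alternatives its difference lay between -1.15 and -0.95, always called. NRCAM was lower with belinostat by a log2 difference of -0.39 ± 0.16 (adjusted p = 0.0844, DESeq2), and it was called when only these 8 libraries were fitted (adjusted p = 0.0499, DESeq2). Libraries of the 2 compounds did not overlap for 3 of 8 members (NRCAM, STEAP2 and FGL2), against 17.0% of all genes. For the others the difference ran from -0.21 ± 0.22 (CNTNAP3C) to 0.33 ± 0.2 (GCGR). Without belinostat replicate 17 the GCGR difference was 0.5 and was called (adjusted p = 0.0346, DESeq2), and that of GABRA2 changed from 0.27 to -0.1.

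Against unstimulated cells, whose libraries also entered the choice, 8 of 8 members were called after belinostat, where 10.3% of all genes were. After GSK-J4 the count was 7 of 8, where 5.55% of all genes were. With belinostat the 5 higher genes stood 2.86 (GABRA2) to 5.03 (CPXM2) above the unstimulated level on the log2 scale, and with GSK-J4 2.58 (GABRA2) to 5.12 (CPXM2). FGL2 was the exception after GSK-J4, at -0.27 ± 0.15 (interval -0.56 to 0.02, adjusted p = 0.402, DESeq2). It was called when only those 8 libraries were fitted (adjusted p = 0.0193, DESeq2), and the libraries of the 2 groups did not overlap. CNTNAP3C stood at -0.68 ± 0.22 after GSK-J4 (adjusted p = 0.0315, DESeq2), a call lost with edgeR (adjusted p = 0.0552) and without any of unstimulated replicates 2, 3 and 4 or GSK-J4 replicates 22, 23 and 24.

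Put as the share of the log2 gap between vehicle and unstimulated cells that remained, belinostat kept 104% for CPXM2, 95.1% for NRCAM, 105% for STEAP2, 98.7% for GCGR and 97.4% for GABRA2. GSK-J4 kept 106%, 103%, 110.5%, 89.9% and 88.1% of the same gaps. Among the 144 other genes called higher in vehicle with a mean of at least 50 normalized counts, the median share kept was 70.8% with belinostat (quartiles 39.2% and 110%) and 94.9% with GSK-J4 (66.7% and 121%). Of the lower members, TMEM255A kept 94.6% with belinostat and 112% with GSK-J4, CNTNAP3C 87.9% and 66.9%, and FGL2 136% and 27.6%. For the 91 other genes called lower the medians were 56.9% and 107%. All these shares use the same vehicle and unstimulated libraries as the choice of genes, and they carry no test.

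**Figure D3:**
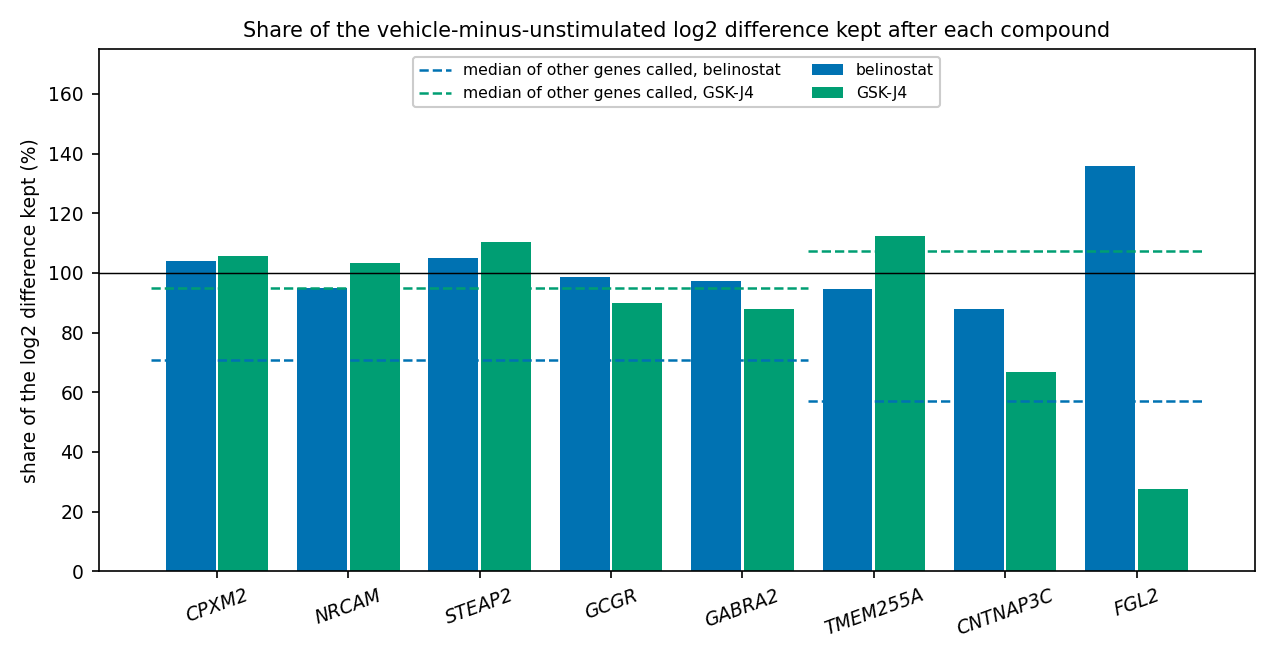
Share of the log2 difference between vehicle and unstimulated cells that was kept after belinostat (blue bars) or GSK-J4 (green bars), in percent, for each of the 8 genes. The line at 100% marks the vehicle level, and dashed lines mark the medians of the other genes called in the same direction. FGL2 kept 136% with belinostat and 27.6% with GSK-J4.

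The members shade into the next genes. Among called genes whose mean reached 50 normalized counts and whose libraries did not overlap, GABRA2 had rank 5 of 144 upward at 2.93 (log2), and the next genes were CXCL5 (2.93) and CXCL8 (2.36), both neutrophil-attracting chemokines, and the complement gene C3 (2.02). In the downward list of 84 genes, MFAP5, a microfibril protein (-1.4 ± 0.39), and the prostaglandin receptor PTGER3 (-1 ± 0.28) ranked among the members without being members. After FGL2 (-0.97) came ISL1 (-0.95), FLT1 (-0.9) and MBP (-0.75).

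The genes nearest to each member in pattern were found by the root mean square distance of the 4 group means of log2(normalized count + 1), each set to 0 in unstimulated cells, over 11741 genes with a mean of at least 50. CPXM2 and NRCAM were each other's nearest, at 0.33, STEAP2 was nearest to NRCAM at 0.41, and GCGR to STEAP2 at 0.55. The second nearest were STEAP2 for CPXM2 (0.68) and for NRCAM (0.41), GCGR for STEAP2 (0.55) and CXCL5 for GCGR (0.71). CPXM2, NRCAM, STEAP2 and GCGR had the widest upward vehicle gaps among the genes ranked above. The distance includes that gap, which chose them, so their nearness to one another in part repeats the choice. GABRA2 was nearest to CXCL5 (0.33) and to the pseudogene HERC2P2 (0.44). TMEM255A lay closest to CHRDL1, a BMP antagonist (0.26), and PTGER3 (0.37), and CNTNAP3C to GNG4 (0.093) and PTGER3 (0.1). FGL2 was nearest to NPTX1 (0.16), a neuronal pentraxin, and EPHB6 (0.19), an ephrin receptor. HERC2P2, CHRDL1, GNG4, NPTX1 and EPHB6 were not themselves called in vehicle against unstimulated cells (adjusted p from 0.0525 to 0.95, DESeq2).

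Relatives and partners of the members were then read in the same fit, to see whether a member moved with its family. The lists held 117 other genes, of which 70 could be tested in vehicle against unstimulated cells: 6 were called higher and 6 lower, with a median log2 difference of 0.01, against 1.74% called of all 16240 genes. These lists were drawn up around the members and are described by their counts alone.

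The list around STEAP2 held the largest number of genes called in vehicle, most of them iron genes outside the STEAP family. Of 14 tested genes of the STEAP family and of iron handling, 5 were called higher in vehicle and none lower; edgeR also called 5. STEAP1, a family member and neighbour on chromosome 7, was almost absent from unstimulated cells, at 4.83, 1, 0.89 and 0 normalized counts. It read 60, 36.4, 35.4 and 47.03 in vehicle, 36.3, 29.3, 46.4 and 29.1 after belinostat and 53.9, 82.9, 80.3 and 57.6 after GSK-J4. Its vehicle difference was 4.74 ± 0.6 on the log2 scale (adjusted p = 2.03e-12, DESeq2), an estimate that rests on few unstimulated counts.

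STEAP1 was still 4.4 ± 0.6 above the unstimulated level after belinostat and 5.36 ± 0.59 after GSK-J4 (log2). The compounds differed from each other, with belinostat below GSK-J4 by a log2 difference of -0.96 ± 0.27 (adjusted p = 0.00482, DESeq2). Neither differed from vehicle beyond the threshold: the values were -0.34 (adjusted p = 0.638) and 0.62 (adjusted p = 0.298, both DESeq2). The start of STEAP1 lies 13.1 kb upstream of the GENCODE start of STEAP2, and the RefSeq start of the STEAP2 window printed above lies further downstream, inside that gene. STEAP1 was the 1 gene called of 72 tested whose start lay within 500 kb of a member's start. Over all 16240 genes 1.74% were called, so that count is near the general share. By edgeR, 1 of 62 was called. An unadjusted p under 0.05 was found for 14 neighbours, and no share over all genes was taken for that count.

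**Figure D4:**
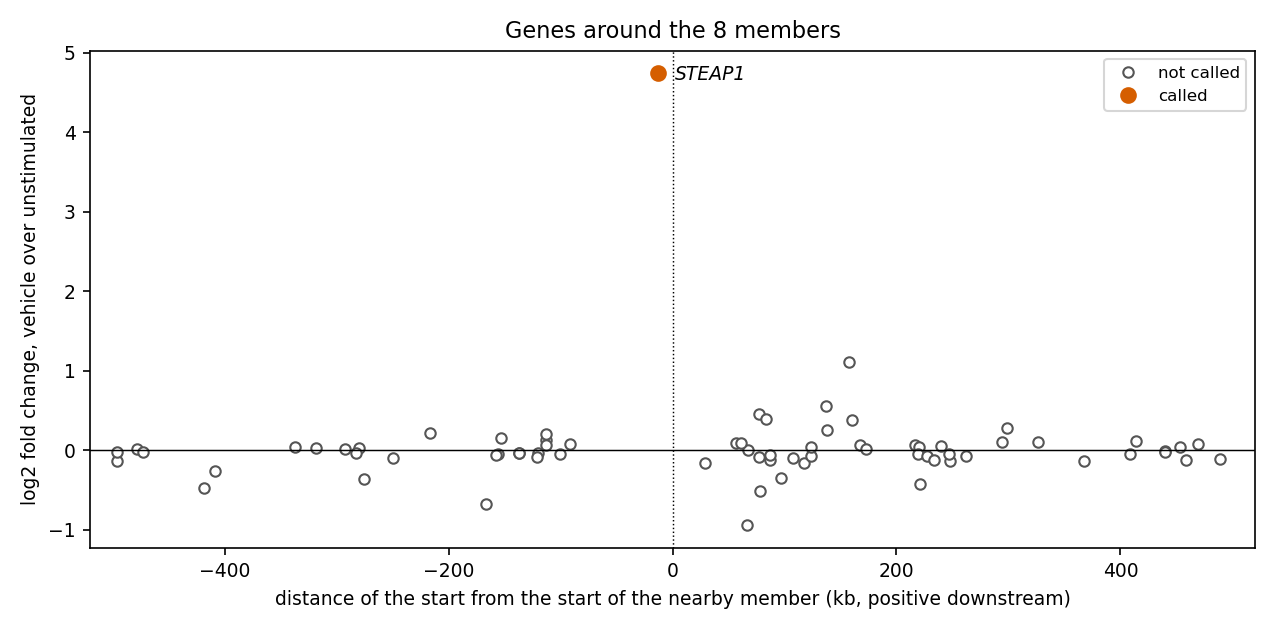
Log2 fold change of vehicle over unstimulated cells (vertical axis) for genes whose start lies within 500 kb of the start of a member (horizontal axis, distance in kb, positive downstream). Each circle is 1 of 72 tested genes, filled where called. STEAP1, 13.1 kb upstream of STEAP2, stands at 4.74 and no other gene was called.

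The other iron genes called higher in vehicle changed less. SLC39A8, a zinc, manganese and iron importer, rose by 0.74 ± 0.12 (log2), and belinostat raised it by a further 0.55 ± 0.12 (adjusted p = 0.00024, DESeq2). ACO1, the iron-responsive RNA-binding aconitase, rose by 0.31 ± 0.07 in vehicle and was lower with belinostat than with vehicle (difference -0.38 ± 0.07, adjusted p = 1.61e-05, DESeq2). TFRC, the transferrin receptor, rose by 0.29 ± 0.06 and by a further 0.32 ± 0.06 with GSK-J4 (adjusted p = 0.000166, DESeq2). SLC11A2, a ferrous iron transporter, rose by 0.24 ± 0.06, a call lost without unstimulated replicate 1 (adjusted p = 0.0545, DESeq2). STEAP3, SLC40A1, SLC39A14 and HMOX1 were called only in contrasts with a compound. STEAP3 stood 0.46 ± 0.11 above unstimulated cells after GSK-J4. SLC40A1 (ferroportin) was 0.30 ± 0.08 higher with belinostat than with GSK-J4 (adjusted p = 0.0041, DESeq2). Both calls held in all 13 alternatives, as did that of SLC39A14 after GSK-J4 against unstimulated cells. Belinostat against unstimulated cells lost its call in 5 of 13 for HMOX1 and in 3 for SLC39A14. Belinostat against GSK-J4 lost it in 8 each for HMOX1 and STEAP3. The SLC40A1 difference between belinostat and vehicle, 0.25 ± 0.08, lost its call in 9 of 13 alternatives, among them edgeR (adjusted p = 0.0709) and fits without vehicle replicate 14, 15 or 16 or belinostat replicate 18, 19 or 20 (adjusted p up to 0.204, DESeq2).

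NRCAM's family and its partners went several ways. ANK3, an ankyrin that anchors L1-family proteins to the cytoskeleton, read 165, 189, 207 and 174 in unstimulated cells and 303, 343, 320.4 and 366 in vehicle. Belinostat libraries held 204, 256, 174 and 251, and GSK-J4 libraries 196, 187, 193 and 202. The rise of 0.86 ± 0.12 in vehicle (log2, adjusted p = 4.47e-10, DESeq2) was followed by differences from vehicle of -0.59 ± 0.12 with belinostat (adjusted p = 3.52e-05, DESeq2) and -0.77 ± 0.12 with GSK-J4 (adjusted p = 1.15e-07, DESeq2). Every library of both compounds lay below every vehicle library, unlike those of NRCAM, which overlapped.

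ANK2 fell in vehicle (log2 difference -0.64 ± 0.16, adjusted p = 0.00592, DESeq2), a call lost with edgeR (adjusted p = 0.053) and without vehicle replicate 16. It was 0.71 ± 0.16 higher than vehicle after belinostat (adjusted p = 0.000378, DESeq2). CHL1, an adhesion molecule of the L1 family, fell slightly (-0.21 ± 0.05) and was 0.33 ± 0.05 higher after belinostat (adjusted p = 2.73e-09, DESeq2). In all, 14 genes of this list were tested, with 1 called higher and 2 lower, and L1CAM itself had means of 46.5 in unstimulated cells and 113 in vehicle without being called. NRP1, a semaphorin co-receptor, was not called in vehicle but differed between the compounds by -1.77 ± 0.19 (belinostat minus GSK-J4, log2, adjusted p = 1.9e-18, DESeq2). SEMA3B and SEMA3F, semaphorins, were called against unstimulated cells after belinostat, at -0.28 ± 0.08 and 0.57 ± 0.19. When only the groups compared were fitted, both calls were lost (adjusted p = 0.089 and 0.131, DESeq2). The belinostat call of SEMA3B was also lost without unstimulated replicate 3 (adjusted p = 0.0564, DESeq2). That of SEMA3F was lost without unstimulated replicate 2, 3 or 4 or belinostat replicate 18 or 19 (adjusted p up to 0.152, DESeq2). After GSK-J4, SEMA3B stood at -0.35 ± 0.08 against unstimulated cells (adjusted p = 0.00167, DESeq2), a call kept in all 13 alternatives.

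CPXM2 moved apart from its relatives. Of 9 tested carboxypeptidases, AEBP1, a matrix-associated family member, was called lower in vehicle (-0.5 ± 0.11, adjusted p = 0.00131, DESeq2) and none was called higher, by DESeq2 or by edgeR, which called 1 in all. CPXM1, its namesake, had means of 113, 87.5, 80 and 83.7. CPE, a prohormone-processing carboxypeptidase, was not called in vehicle and was 1.24 ± 0.28 higher after belinostat (log2, adjusted p = 0.000471, DESeq2). CPD stood 0.28 ± 0.06 above unstimulated cells after belinostat.

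GCGR and GABRA2 also stood alone in their lists. Of 8 tested genes around the glucagon receptor and of 12 of the GABA system, 0 were called in vehicle against unstimulated cells by DESeq2 or edgeR, and 0 had an unadjusted p under 0.05. GCG, which encodes glucagon, had a mean under 1 in every group. GLP2R, the receptor for glucagon-like peptide 2, had means of 238, 272, 286 and 256. Of the other subunits of GABA-A receptors, GABRB1, GABRB2 and GABRG1 had means under 1 in every group, and GABRE had means between 1241 and 1566. The genes DPP4, GIPR and RAMP1 of the first list and ABAT of the second were called in contrasts with a compound, the compounds differing by -0.5 ± 0.06 in DPP4 and by 0.51 ± 0.15 in ABAT (belinostat minus GSK-J4, log2).

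CNTNAP3C was lower in vehicle together with the genes it shares sequence with. CNTNAP3 went from 643 ± 50.8 to 415 ± 19.1 in vehicle (-0.63 ± 0.12 on the log2 scale, adjusted p = 4.77e-05, DESeq2) and CNTNAP3B from 3175 ± 229 to 2223 ± 214 (-0.51 ± 0.11, adjusted p = 0.000355, DESeq2). With the 3 genes summed into 1 row, means were 3946 ± 292, 2701 ± 217, 2674 ± 466 and 2876 ± 203, and the vehicle difference was -0.55 ± 0.11 in place of -1.02. The summed row stayed below unstimulated cells after belinostat (-0.56 ± 0.11, adjusted p = 7.85e-06, DESeq2) and after GSK-J4 (-0.46 ± 0.11, adjusted p = 0.000891, DESeq2). Reads of these 3 genes cannot be told apart over most of the CNTNAP3C transcript. CNTNAP3C was also chosen by the vehicle contrast. The paralog and summed rows are therefore not separate evidence that relatives moved with it. CNTNAP1 was called in contrasts with GSK-J4, 0.45 ± 0.09 above unstimulated cells and with belinostat below GSK-J4 (-0.3 ± 0.09).

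**Figure D5:**
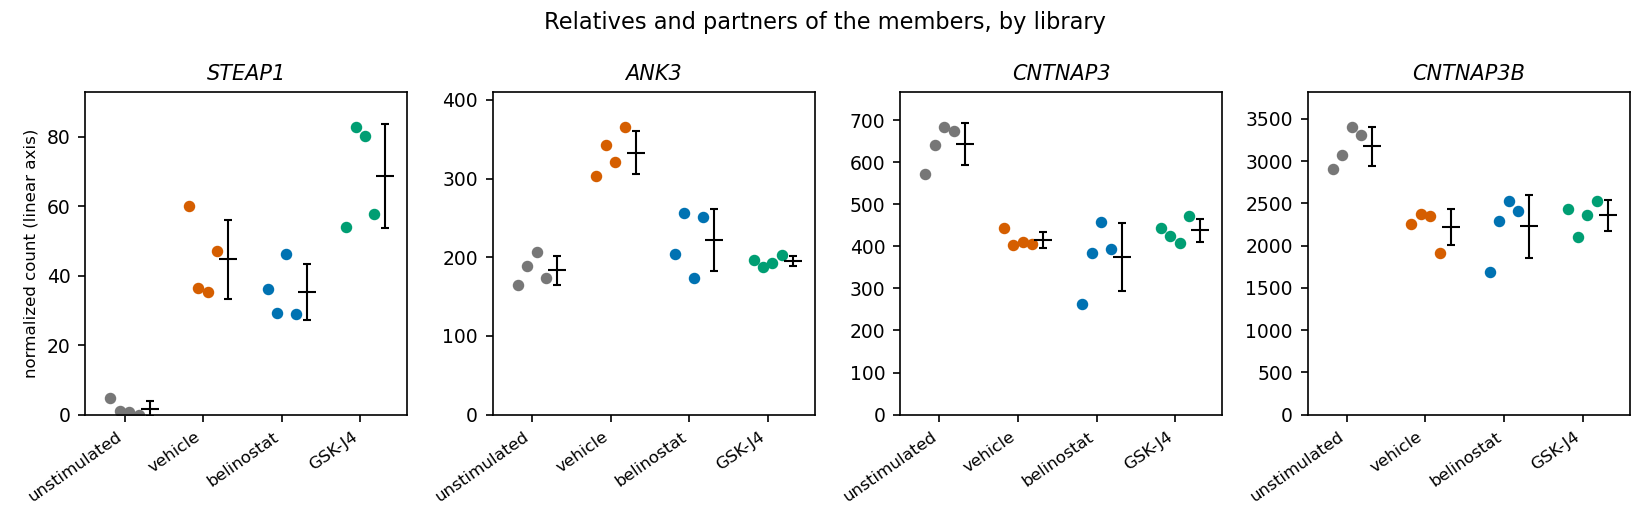
Normalized counts (vertical axes, linear from 0) of STEAP1, ANK3, CNTNAP3 and CNTNAP3B in the 4 groups. Dots are libraries and black bars are means ± SD (n = 4). STEAP1 stayed high after both compounds, at 35.3 and 68.7 on average, whereas ANK3 averaged 221 and 195 after them against 333 in vehicle.

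FGL2 shares the fibrinogen-like domain with several secreted proteins. Of 8 tested, TNC, which encodes the matrix protein tenascin C, was called lower in vehicle (-0.74 ± 0.22 on the log2 scale, adjusted p = 0.0411, DESeq2) and was 0.85 ± 0.22 higher with GSK-J4 than with vehicle (adjusted p = 0.00921, DESeq2). Its libraries read 3057, 2733, 3707 and 3896 in unstimulated cells, 1819.8, 2206, 2301 and 1696 in vehicle, 3140.0, 2713, 1568 and 1638 after belinostat, and 3402, 3828, 4087 and 3159 after GSK-J4. The vehicle call was lost with edgeR and in 7 of 8 fits that left out a library (adjusted p up to 0.223, DESeq2). Leaving out vehicle replicate 13, vehicle replicate 16, GSK-J4 replicate 22 or GSK-J4 replicate 23 ended the GSK-J4 call (adjusted p up to 0.079, DESeq2). Belinostat minus GSK-J4 was -0.68 ± 0.22 for TNC (adjusted p = 0.0196, DESeq2), a call lost when only those groups were fitted and without belinostat replicate 20, GSK-J4 replicate 22 or GSK-J4 replicate 23 (adjusted p up to 0.0892, DESeq2). TNXB (1.05 ± 0.27 above vehicle with belinostat, adjusted p = 0.00385, DESeq2), ANGPT1, ANGPTL1 and MFAP4 were called only in contrasts with belinostat. Those against GSK-J4 were lost for ANGPT1 in 6 of 13 alternatives (only those groups, or without belinostat replicate 18, 19 or 20 or GSK-J4 replicate 22 or 23, adjusted p up to 0.163, DESeq2), for ANGPTL1 in 3 (without belinostat replicate 18 or 20 or GSK-J4 replicate 22) and for MFAP4 in 7 (edgeR, or without belinostat replicate 17, 18 or 20 or GSK-J4 replicate 21, 22 or 24). Against unstimulated cells the ANGPT1 call was lost in 4 (only those groups, or without unstimulated replicate 1 or belinostat replicate 18 or 20), the TNXB call in 6 (only those groups, or without unstimulated replicate 1 or 2 or belinostat replicate 18, 19 or 20) and the MFAP4 call in none of the 13. TMEM255B, the relative of TMEM255A, had means of 43.6, 51.3, 48.6 and 48.4 and was called in no contrast.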

How the data were processed

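Bulk RNA-seq libraries of Ccd18-Co were grouped by their labels, and columns of unstimulated libraries, which carry the word none where the titles give DMSO, were matched by replicate number. The authors quantified reads with kallisto, and the submitters' processing notes list kallisto 0.48.0, FastQC 0.11.9, MultiQC 1.14 and hg38. The transcriptome release and the summing to symbols are not given in the sources used here. The authors deposited these estimated counts by gene symbol (14.4 to 19.5 M per library), which were rounded to whole numbers. No column was left unused. Reads show no molecular identifiers, so counts carry more than counting error.

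DESeq2 1.42.0 in R 4.3.3 was fitted to all 16 libraries by group alone, with its median-of-ratios normalization and default independent filtering, and contrasts were tested by its Wald test. Fold changes were not shrunken, SEs and 95% intervals come from the fit, and SDs are over libraries. Calls were made at an adjusted p under 0.05 (Benjamini-Hochberg, over all genes tested). Alternatives were edgeR's quasi-likelihood test (edgeR 4.0.16), TMM size factors, a filter of 10 counts in 4 libraries, fits of only the groups compared and leaving out each library. Summing CNTNAP3, CNTNAP3B and CNTNAP3C was added after the sequence shared between them was seen. On simulated counts for belinostat versus GSK-J4 over 13886 genes, DESeq2 recovered 173 of 200 changed genes with 16 false among 189 calls, and edgeR 171 with 4 false among 175.

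The 8 members, the family and marker lists and the naming rules were chosen with earlier results of these data known. Named beside the members are family genes with a mean of at least 10 normalized counts called in any of 6 contrasts, neighbours within 500 kb called in vehicle versus unstimulated, the next 3 genes by rank and the 2 nearest in pattern. CPXM1, L1CAM, GCG, GLP2R, CCDC146, TMEM255B and GABA-A subunits were named outside these rules, after their values were seen. Gene positions are from GENCODE v44 and promoters from RefSeq.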

Additional observations from a re-analysis of the deposited data

Results flagged for a closer look

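The effects of the 2 compounds on FGL2 differed from each other. Belinostat minus GSK-J4 was -1.05 on the log2 scale, with an SE of 0.15 and an adjusted p of 2.06e-10 by DESeq2's Wald test, a contrast within the fit of all 16 libraries, whose dispersion also draws on the vehicle and unstimulated libraries. Fitted on the 8 libraries of the compounds alone it was -1.05 (adjusted p = 1.3e-15, DESeq2). Means were 643 ± 111 normalized counts after belinostat and 1330 ± 122 after GSK-J4 (SD, n = 4), and all 4 belinostat libraries lay below all 4 GSK-J4 libraries. Leaving out belinostat replicate 17, the lowest library, gave -0.95 (adjusted p = 5.12e-09, DESeq2). Of the 32 groups of 4 libraries examined, 8 genes by 4 groups, none held a library beyond the critical value of Dixon's test, although chance alone marks about 1 group in 20.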

How the results depend on the processing

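Of 520 refits of the members' tested fold changes, 491 kept direction and side of the threshold, 14 lost a call, 4 gained one and 11 changed sign. Of 104 refits of the untested vehicle gap, 103 moved by less than the spread between libraries and 1 by more. The sign changes were all in differences that did not pass the threshold. Against vehicle, belinostat differences ranged on leaving out a library from -0.17 to 0.11 for GCGR, -0.45 to 0.071 for GABRA2, -0.14 to 0.35 for TMEM255A and -0.0012 to 0.30 for CNTNAP3C, which was -0.015 with its paralogs summed. Belinostat minus GSK-J4 ranged from -0.10 to 0.42 for GABRA2. Members called for GSK-J4 versus vehicle were 2, but 1 with edgeR, and for belinostat versus GSK-J4 1, but 2 when only those groups were fitted. Leaving out a library gave 0 to 1 for belinostat versus vehicle (1 without vehicle replicate 16), 1 to 2 for GSK-J4 versus vehicle, 1 to 2 for belinostat versus GSK-J4 (2 without belinostat replicate 17) and 1 to 2 called neighbours (2 without unstimulated replicate 3). Against unstimulated cells the counts were 8 after belinostat in each alternative, and 6 to 8 after GSK-J4. The causes were not tested. Few counts limit NRCAM, STEAP1, GCGR, STEAP2 and CPXM2 in unstimulated cells. No paired analysis was possible because the groups share no replicate number.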
